A study of Mus musculus with 8 samples.

Results

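The mouse Zfp genes are the genes whose symbol is Zfp followed by a number, the usual name for zinc finger proteins in this species. They were taken from the expression table by symbol alone, with an optional letter and further digits after the number. The rule found 314 genes, 2.32% of the 13540 genes of the table. Mouse ES cells of strain 129/Ola were differentiated toward heart muscle, and their poly(A) RNA was sequenced at day 0 as undifferentiated ES cells (ESC), at day 4 as mesoderm (MES), at day 5.3 as cardiac precursors (CP) and at day 10 as cardiomyocytes (CM). These 4 stages had 2 libraries each. Cells of the later stages had grown as embryoid bodies in serum-free medium, then been reaggregated with human VEGF, Activin A and BMP4, and last been plated in medium with FGF10, basic FGF and more VEGF. The labels name no genetic change in any stage, and every stage is an unsorted culture as far as they say. The table holds 1 value per gene and stage in RPKM (reads per kilobase of gene model and per 1000000 reads), so the differences between stages had no replicate check, no SD and no test.

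Most zinc finger proteins of this kind carry C2H2 fingers, short loops held by a zinc ion that read DNA base by base when strung together. A large class adds a KRAB domain, which binds the corepressor TRIM28. TRIM28 brings the histone methyltransferase SETDB1 and heterochromatin proteins to the bound site. KRAB zinc finger proteins are best known for keeping retroelements and imprinted loci silent in early embryos and ES cells. A few genes with Zfp symbols encode another type, CCCH fingers, which bind RNA.

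The label was checked on the translated GENCODE M21 transcripts of the members. Of 301 members with a translation, 143 held both C2H2 fingers and a KRAB pattern, and 145 held C2H2 fingers without it. A CCCH pattern was found in 4 members, Zfp36, Zfp36l1, Zfp36l2 and Zfp36l3. In 9 members, among them Zfp503 and Zfp703, neither finger pattern matched, and 13 had no translation. The median number of C2H2 fingers was 12 in KRAB members and 7 in C2H2 members without KRAB, and the highest was 36. A KRAB pattern meant at least 18 matches to a consensus of 37 residues, and 11 members with 12 to 17 matches were counted as without it. A KRAB domain further from the consensus would be missed, so without KRAB means without this pattern. The symbols are those of the table, and 12 members have another symbol in M21, such as Zbtb14 for Zfp161.

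Promoters were read from the RefSeq table of build GRCm38.p6, 250 bases before to 50 after the start, for 255 members with 321 promoters. The promoters of the members with the largest stage difference in ESC, CP and CM are printed on the strand of the gene. Capitals mark a match to an octamer motif (ATGCAAAT on either strand, the motif of POU factors) or to the CArG box, the motif of SRF.
Zfp42, chr8:43306960-43307259, minus strand: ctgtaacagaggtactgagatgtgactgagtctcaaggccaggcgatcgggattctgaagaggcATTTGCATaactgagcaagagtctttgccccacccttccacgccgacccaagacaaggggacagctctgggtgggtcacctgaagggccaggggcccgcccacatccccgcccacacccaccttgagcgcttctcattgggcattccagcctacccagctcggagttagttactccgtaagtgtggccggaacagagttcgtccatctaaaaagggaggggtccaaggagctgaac
Zfp503, chr14:21989552-21989851, minus strand: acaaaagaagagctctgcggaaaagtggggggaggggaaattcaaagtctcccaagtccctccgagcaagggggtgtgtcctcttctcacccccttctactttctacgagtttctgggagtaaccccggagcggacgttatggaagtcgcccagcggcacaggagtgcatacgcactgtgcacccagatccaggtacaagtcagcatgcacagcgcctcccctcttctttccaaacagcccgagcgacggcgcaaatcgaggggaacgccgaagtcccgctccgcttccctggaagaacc
Zfp36, chr7:28379179-28379478, minus strand: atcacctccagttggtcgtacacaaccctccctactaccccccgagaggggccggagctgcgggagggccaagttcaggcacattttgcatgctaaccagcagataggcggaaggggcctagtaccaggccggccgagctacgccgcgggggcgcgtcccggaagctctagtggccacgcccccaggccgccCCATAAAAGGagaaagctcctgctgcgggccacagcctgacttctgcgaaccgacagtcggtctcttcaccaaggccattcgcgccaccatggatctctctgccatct
The octamer letters were in 2.49% of the members' promoters and in 1.74% of all 32851 promoters. These belong to 27025 genes, more than the 13540 of the expression table, where every gene reaches 1.00 RPKM at some stage. The shares of all promoters below thus include genes without that level, and members were not compared with promoters of expressed genes alone. Of the 8 members with such a promoter, Zfp42, Zfp296, Zfp428 and Zfp345 were highest in ESC, Zfp207 and Zfp263 in MES, Zfp791 in CP and Zfp120 in CM. CArG boxes were in 1.56% of the members' promoters and 1.63% of all. The cyclic AMP response element, TGACGTCA, was in 4.05% of the members' promoters against 1.79% of all, and AAGATGGC, a YY1 motif, in 4.98% against 2.75%. The AP-1 motif TGANTCA was in 3.74% of the members' promoters against 7.81% of all. The other letters searched, all on both strands, were TCAAGGTCA for ESRRB (0.623% against 0.423%), GCGTGGGCG for EGR (0.312% against 0.612%), AGGTGTGA for T-box factors (1.56% against 1.28%), GGGGCGGGG for SP factors (11.5% against 11.4%) and TTTCGCGC for E2F (0.312% against 0.323%). Promoters of members held a median of 16 CpG dinucleotides, against 7 for all promoters, with a median of 11 for KRAB members and 20 for C2H2 members without KRAB. A match of letters is a description of the sequence and not a bound site.

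Zfp genes were expressed at low levels throughout. Their median level was 3.39 (ESC), 4.05 (MES), 4.51 (CP) and 3.38 RPKM (CM), against 6.07, 6.73, 7.11 and 6.50 RPKM for all genes. At least 10 RPKM was reached at some stage by 105 members and at least 50 RPKM by 13, while 42 stayed below 2 RPKM. All 314 reached 1.02 RPKM at some stage, because the table holds no gene whose highest value is below 1.00 RPKM. Of 403 M21 genes whose symbols follow the same rule, 83 have no gene ID in the table and were not analysed here. More than 1 RPKM at all 4 stages was measured for 239 members (76.1%), against 70.9% of all genes, and at a single stage for 25 members. Shares of all genes were not computed for a single stage or for the limits of 10, 50 and 2 RPKM, so these counts have no background. Estimated depth was 75.3, 62.0, 64.8 and 88.5 M reads in ESC, MES, CP and CM (1 M is 1000000). The 4 markers of each of ESC, MES and CM summed highest in their own stage, at 1132, 297 and 6976 RPKM, and the 4 of CP reached 205 RPKM in CP and 245 RPKM in CM. For a gene model of 2 kb, 1 RPKM meant 151, 124, 129.6 and 177 reads.

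The Zfp genes varied less between stages than the table as a whole. Differences are given as log2 of RPKM plus 1, which understates the change of genes with low values, and a difference of at least 1 is called at least 2-fold. From the lowest to the highest stage, 124 members (39.5%) spanned at least 2-fold, against 63.2% of all genes, and 33 (10.5%) spanned at least 4-fold, against 23.8%. The difference lay in members of low and middle level. Among members with a mean of 1 to 5 RPKM, 43 of 146 (29.5%) spanned at least 2-fold, against 64.1% of all genes at that level. At a mean of 5 to 20 RPKM the share was 48.3%, against 60.8%, and at 20 RPKM or more it was 65.5%, against 64.9%. The flattest members with a mean of at least 5 RPKM were Zfp13, Zfp335, Zfp263 and Zfp830. Zfp13 stood at 9.98, 11.0, 9.87 and 9.87 RPKM and Zfp830 at 18.3, 18.9, 16.9 and 15.6 RPKM from ESC through CM.

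Counted by the stage of the highest value, 81 members belonged to ESC, 85 to MES, 95 to CP and 53 to CM. As shares these are 25.8%, 27.1%, 30.3% and 16.9%, against 30.5%, 22.8%, 17.0% and 29.8% of all genes. CP was thus the most frequent stage of the highest value among the members and the least frequent among all genes. With quantile normalization between stages the CP count was 58 members (18.5%, against 15.0% of all genes), and MES was then the most frequent stage with 107. With each stage scaled to the same sum or by median-ratio size factors, the CP shares were 36.6% and 27.7% of members, against 21.8% and 15.2% of all genes. With size factors ESC was the most frequent stage, with 96 members (30.6%), ahead of CP with 87. Which stage led therefore depended on the scaling. Of the 124 members that spanned at least 2-fold, the maximum lay in ESC for 39 (31.5%), MES for 30 (24.2%), CP for 35 (28.2%) and CM for 20 (16.1%), against 33.3%, 19.2%, 15.2% and 32.3% of all genes with such a span. The lowest value fell in CM for 143 members (45.5%), against 39.4% of all genes.

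**Figure D1:**
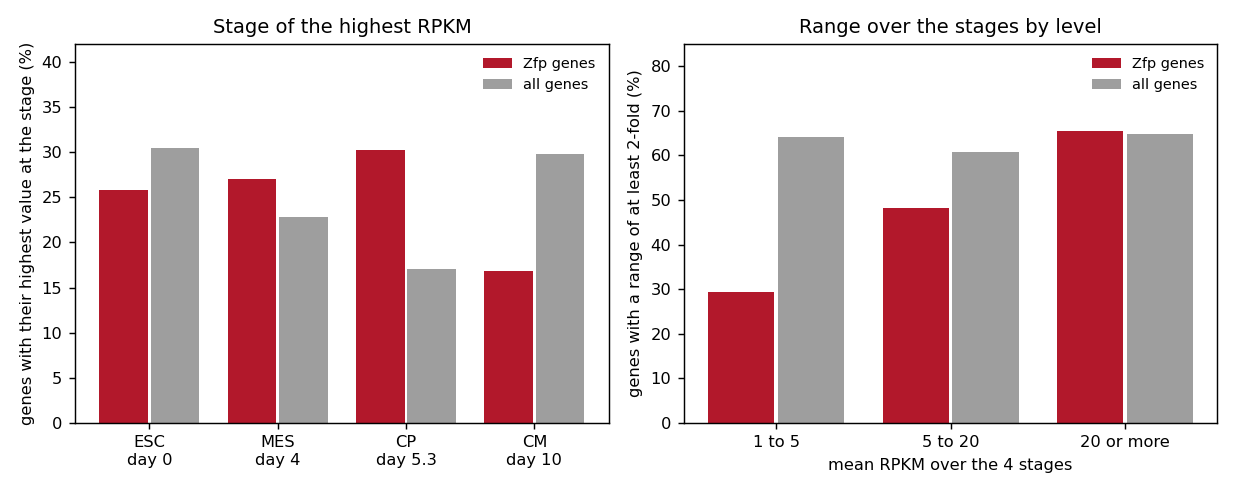
Left, percentage of genes with their highest RPKM at each of the 4 stages, for the 314 Zfp genes (red) and all 13540 genes of the table (grey). Right, percentage of genes whose values span at least 2-fold over the stages, by mean RPKM; among genes of 1 to 5 RPKM the share is 29.5% of Zfp genes and 64.1% of all genes.

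In MES minus ESC, 36 members (11.5%) were higher by 2-fold or more and 23 (7.32%) lower, against 11.1% and 11.2% of all genes. With median-ratio size factors the counts were 27 and 27, and with every stage scaled to the same sum they were 58 and 26. That sum of 1000000 raised every value, so the added 1 weighed less in the differences. In CP minus MES, 11 members (3.50%) were higher and 4 (1.27%) lower by that much, against 8.91% and 3.91% of all genes. In CM minus CP, 7 members (2.23%) were higher and 27 (8.60%) lower, against 11.3% and 12.8% of all genes. These last counts were 9 and 20 with median-ratio size factors and 10 and 18 after centring on the median of all genes. With every stage scaled to the same sum they were 8 and 57. Shares of all genes past 2-fold were not computed under these other scalings. Over the whole course, 36 members (11.5%) were higher in CM than in ESC by 2-fold or more and 47 (15.0%) lower, against 22.2% and 23.4% of all genes. The median log2 difference of the members was 0.19 for MES minus ESC, where all genes had 0.05, and -0.28 for CM minus CP, where all genes had -0.15.

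**Figure D2:**
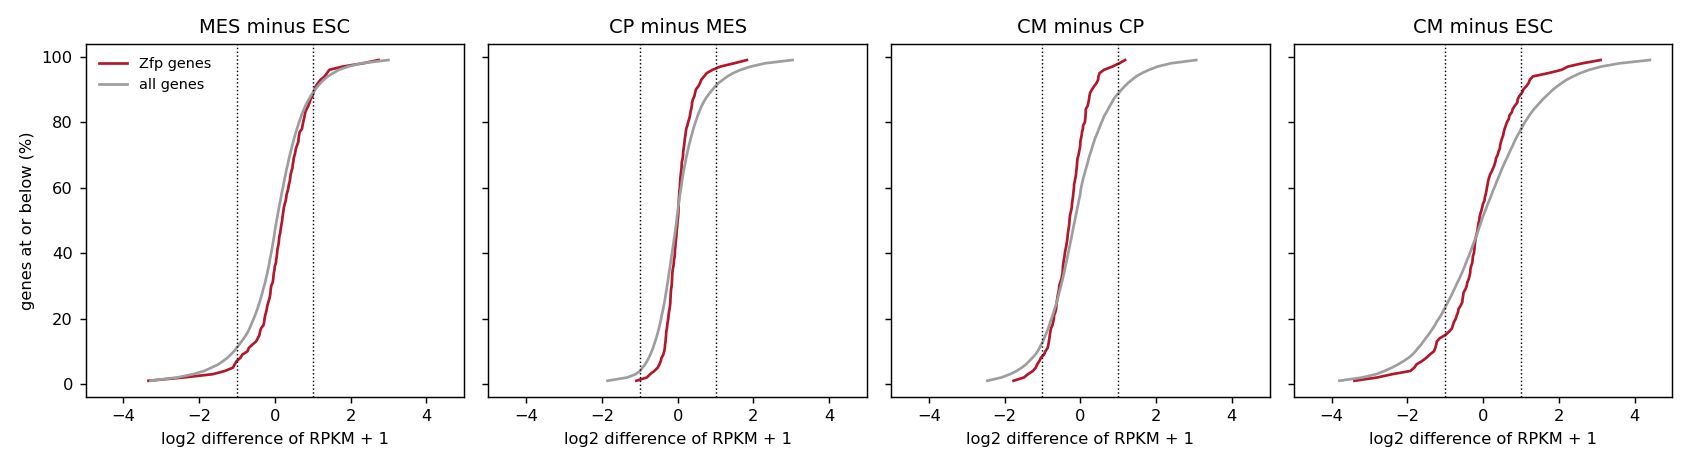
Cumulative percentage of genes (vertical axis) at or below a log2 difference of RPKM plus 1 (horizontal axis) in 4 stage comparisons, from the 1st to the 99th percentile, for Zfp genes (red) and all genes (grey). Dotted lines mark 2-fold; the red curves are steeper than the grey ones in the CP and CM comparisons, where 3.50% of Zfp genes and 8.91% of all genes passed 2-fold upward in CP relative to MES.

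A highest value at least 2-fold above every other stage was found in 30 members (9.55%), against 18.5% of all genes. By stage there were 17 in ESC (5.41%, against 6.87%), 2 in MES (0.637%, against 1.51%), 5 in CP (1.59%, against 1.94%) and 6 in CM (1.91%, against 8.17%). Of the 17 ESC members, 12 were among the 143 members with a KRAB pattern. Another 3 were among the 145 with C2H2 fingers and no KRAB pattern. Such a gap in ESC was found in 6.87% of all genes, so the KRAB count is not read as a trait of that class. For 5 of these 12 (Zfp534, Zfp600, Zfp808, Zfp345 and Zfp59) over 50% of the 32-base words of the transcript occur in other genes, so their levels are uncertain. Just under the 2-fold gap lay Zfp771 in MES with a gap of 0.99 and Zfp827 in CM, also with 0.99. Just over it lay Zfp473 in ESC with 1.03 and Zfp14 in CM with 1.04.

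Zfp42, the pluripotency marker also called Rex1, had the widest span of all members. It stood at 251, 0.758, 0.396 and 0.111 RPKM from ESC through CM. The CM value rests on an estimated 18.5 reads, and its 95% Poisson bounds, for counting error alone, are 0.0663 and 0.174 RPKM. Zfp296, which binds the reprogramming factor KLF4, was next at 62.0, 1.69, 0.524 and 0.339 RPKM. Both were high in ESC and under 2 RPKM at every later stage. By the distance between centred log2 values over the 4 stages, the members most like Zfp42 were Zfp296 (2.06), Zfp936 (3.48), Zfp819 (3.51), Zfp459 (4.11) and Zfp534 (4.22). Zfp936, a KRAB gene, stood at 10.8, 0.0864, 0.0310 and 0.00756 RPKM, and its CM value corresponds to fewer than 3 reads. Zfp819, a KRAB repressor of retroelements in ES cells, stood at 12.02, 0.131, 0.163 and 0.179 RPKM. The KRAB genes Zfp459 and Zfp534 were likewise high only in ESC within the 4 stages. Zfp459 had 7.38, 0.329, 0.157 and 0.195 RPKM, and Zfp534 had 6.27, 0.317, 0.182 and 0.0444 RPKM. Of the 32-base words of Zfp534, 82.1% also occur in other genes, so reads could have been divided between relatives. The same limit holds for Zfp600 (89.8%) and Zfp640 (58.6%), which had 2.46 and 2.61 RPKM in ESC and were listed at 0 in CM. In mixed cultures, fewer cells of a type and less RNA per cell cannot be told apart.

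Of 8 Zfp genes with a known role in pluripotency, 3 were lower in MES by 2-fold or more relative to ESC and 0 higher, and their median difference was -0.94 on the log2 scale. Over all genes 11.2% were lower and 11.1% higher, with a median of 0.05. Beside Zfp42 and Zfp296, this was Zfp462, a large protein with 33 fingers that helps set heterochromatin in ES cells. Zfp462 stood at 22.9, 3.92, 17.3 and 7.19 RPKM from ESC through CM, lowest in MES and higher again in CP. Zfp281, a partner of NANOG, was lower at each stage than at the one before, with 33.9, 17.7, 14.5 and 8.59 RPKM. Zfp219 stood at 68.0, 33.8, 56.3 and 42.1 RPKM, with a MES minus ESC difference of -0.99 that misses 2-fold. Zfp322a stood at 4.98, 7.90, 8.07 and 4.89 RPKM. Zfp143, an activator bound at many promoters, stayed between 7.22 and 9.28 RPKM, and Zfp217 was highest in CP at 26.7 RPKM. Zfp428 was not on that list and was also lower at each later stage, with 103.6, 54.5, 27.7 and 12.9 RPKM.

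**Figure D3:**
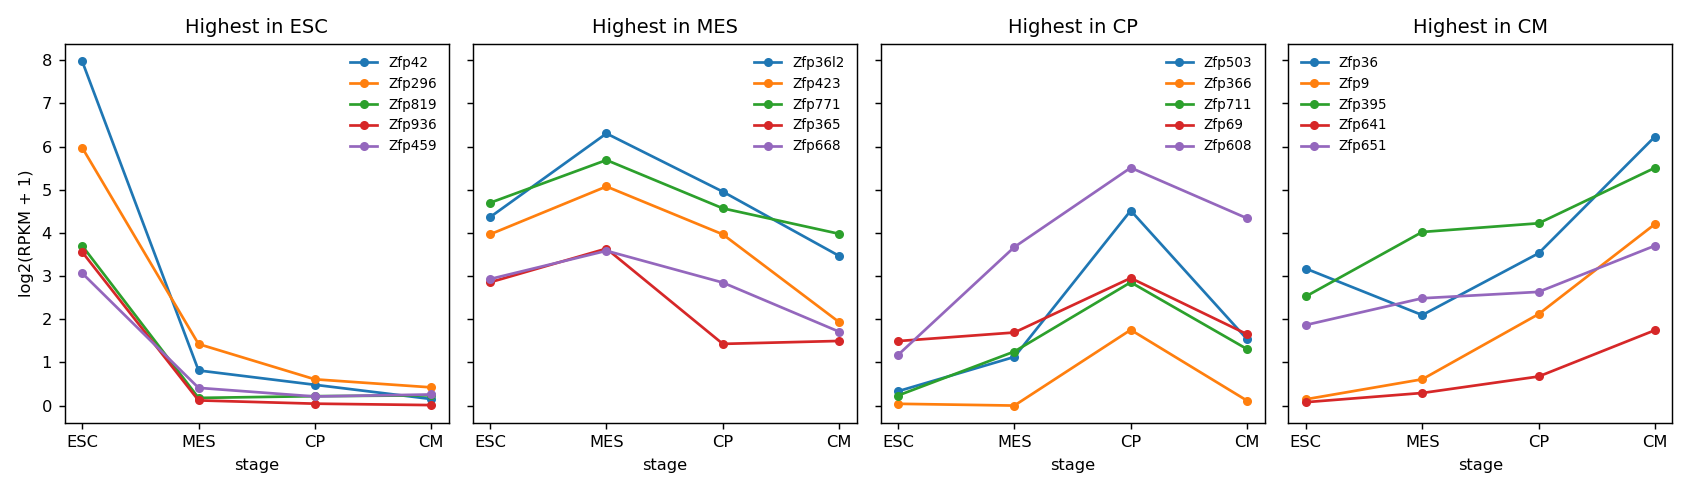
Log2 of RPKM plus 1 (vertical axis) at the 4 stages for the 5 members with the widest gap between their highest and second highest stage, in separate panels for highest in ESC, MES, CP and CM. The ESC members lie at or below 1.69 RPKM at the later stages, the value of Zfp296 in MES (Zfp42 has 251 RPKM in ESC). Of the MES members, Zfp36l2 has 19.6 RPKM in ESC and 30.05 RPKM in CP, whereas Zfp365 is about as low in CP as Zfp296 is in MES.

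The KRAB silencing genes with known targets were mostly higher in ESC. Of 8 such genes, 5 lay at least 2-fold lower in CM than in ESC and 0 higher, against 23.4% and 22.2% of all genes, with a median of -1.18 where all genes had -0.03. Zfp57, which guards methylation at imprinted control regions, had the second highest mean of all members. Zfp57 stood at 143, 25.3, 35.1 and 25.3 RPKM from ESC through CM, so expression stayed well above the members' median at every stage. Zfp445, which acts at the same imprinted regions, had a different course, with 13.9, 22.0, 20.7 and 12.5 RPKM. Zfp809, which silences retroviruses through their primer binding site, stood at 13.2, 4.46, 4.57 and 5.84 RPKM. Zfp568, which represses a placental transcript of Igf2, stood at 38.1, 30.1, 27.0 and 14.9 RPKM. Its largest step was the last, with a CM minus CP difference of -0.81. Zfp808 stood at 4.94, 1.54, 1.53 and 0.712 RPKM, while Zfp708 and Zfp932 did not exceed 1.20 RPKM. Zfp708, Zfp932 and Zfp808 share 100%, 57.1% and 61.0% of their 32-base words with other genes, which makes their levels uncertain.

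KRAB members as a class were lower than C2H2 members without KRAB and, on the scale of log2 of RPKM plus 1, flatter. Their median was 2.28, 2.42, 2.92 and 2.14 RPKM from ESC through CM, against 6.03, 8.97, 8.31 and 6.68 RPKM for C2H2 members without KRAB. At least 2-fold was spanned by 46 KRAB members (32.2%), against 65 (44.8%) of those without. The scale understates changes at low levels. Among all members the share spanning 2-fold was 29.5% at a mean of 1 to 5 RPKM and 48.3% at 5 to 20 RPKM. The classes were not compared at matched levels. Among KRAB members 8 (5.59%) were higher and 14 (9.79%) lower in MES by 2-fold or more relative to ESC, against 25 (17.2%) higher and 5 (3.45%) lower among those without KRAB. Over all genes the shares were 11.1% and 11.2%, so the KRAB share lower in MES was not above the background. From CP to CM both classes had more members lower than higher, with 2 (1.40%) higher and 9 (6.29%) lower in CM among KRAB members and 3 higher and 16 (11.0%) lower among those without. Over all genes 11.3% were higher and 12.8% lower.

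The corepressor machinery that KRAB proteins recruit was mostly lower in CM than at the earlier stages. Of 18 genes, 6 lay at least 2-fold lower in CM than in CP and 0 higher, with a median of -0.84 where all genes had -0.15. Against ESC, 10 were lower in CM by 2-fold or more and 1 higher, with a median of -1.32. Over all genes 11.3% were higher and 12.8% lower in CM than in CP by that much. Relative to ESC, 22.2% were higher and 23.4% lower in CM. Shared words were measured for the Zfp members only, so this limit on levels is unknown for the corepressor genes. Trim28, the shared corepressor, stood at 202 and 90.9 RPKM in CP and CM. Among the DNA methylation genes, Dnmt3b stood at 81.4, 51.6, 24.6 and 0.807 RPKM and Uhrf1 at 60.2, 73.4, 42.6 and 4.42 RPKM over the 4 stages. Dnmt3a, the other de novo methyltransferase, was highest in CM, with 21.8, 15.0, 19.4 and 25.9 RPKM, and stayed under 2-fold in every comparison. Setdb1 stood at 25.5, 20.5, 14.7 and 9.23 RPKM, lower at each stage without a 2-fold step. The gene that was higher was Chd3, a remodeller, with 4.25, 8.25, 13.7 and 14.3 RPKM. Of the HUSH silencing complex, 3 of 4 genes were measured, and Pphln1 was the one lower in CM than in CP by 2-fold or more. All 12 cell cycle genes examined lay at least 2-fold lower in CM than in CP, and their part in these differences was not tested.

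**Figure D4:**
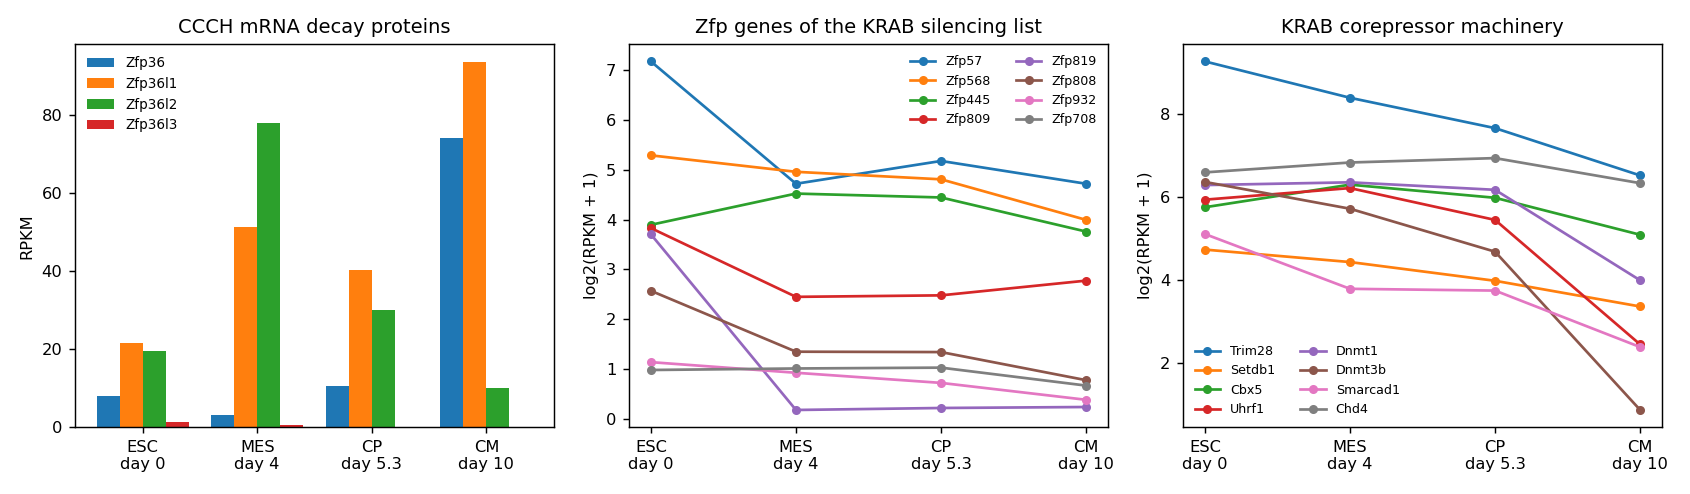
Left, RPKM of the 4 CCCH genes at each stage as bars. Middle and right, log2 of RPKM plus 1 over the stages for the 8 Zfp genes of the KRAB silencing list and for 8 genes of the corepressor machinery; Zfp57 stays above 25 RPKM at every stage, and Dnmt3b reaches 0.807 RPKM in CM.

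The CCCH genes destabilise mRNAs with AU-rich ends by recruiting the CCR4-NOT deadenylase, and each had its own course. Zfp36, an immediate-early gene also known as tristetraprolin, stood at 8.02, 3.28, 10.5 and 74.2 RPKM from ESC through CM. Zfp36l2 stood at 19.6, 78.1, 30.05 and 10.1 RPKM, the highest value of any member in MES. Zfp36l1 stood at 21.7, 51.4, 40.3 and 93.6 RPKM, the highest of any member in CM. Of its words 61.1% occur in transcripts of other genes, against 4.57% for Zfp36, 2.14% for Zfp36l2 and 0% for Zfp36l3. Zfp36l3, known from the rodent placenta, stood at 1.41, 0.516, 0.0723 and 0.00963 RPKM, the last from an estimated 2 reads. The family thus had its highest member in MES and in CM in different genes. Of 10 CCR4-NOT genes, 1 was at least 2-fold higher and 3 lower in CM than in ESC, against 22.2% and 23.4% of all genes. The higher one was the deadenylase Cnot6l with 7.76 RPKM in CM and 1.32 RPKM in ESC. Dissociation and stress genes were also higher in CM than in CP, 7 of 9 by 2-fold or more, against 11.3% of all genes. Their summed level was 272, 420, 472 and 1160 RPKM over the 4 stages, and it was higher in MES than in ESC, where Zfp36 was lower. Their part in the CM level of Zfp36 and Zfp36l1 was not tested.

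Of the 36 members higher in MES than in ESC by 2-fold or more, 25 were C2H2 genes without KRAB, and several stayed on through CM. Zfp362 stood at 2.17, 32.4, 26.6 and 26.4 RPKM from ESC through CM, the largest MES minus ESC difference of any member at 3.40. Zfp521, a protein with 27 fingers known from immature blood, neural and mesenchymal cells, stood at 0.276, 11.6, 18.2 and 14.7 RPKM. Its paralogue Zfp423, a factor of preadipocytes with the same number of fingers, stood at 14.6, 32.7, 14.6 and 2.82 RPKM. Of this pair, Zfp521 was higher and Zfp423 lower in CM than in ESC, and their levels were closest in CP. Zfp629 stood at 0.616, 10.0, 11.4 and 9.03 RPKM. Of 3 genes known from heart and muscle, Zfp260, which cooperates with GATA4 in heart cells, stood at 6.94, 15.6, 16.5 and 15.0 RPKM and was at least 2-fold higher in CM than in ESC. Zfp418 was at least 2-fold lower in CM than in ESC, with 2.99, 1.43, 1.51 and 0.816 RPKM, and Zfp106 was under 2-fold. The Z3 partners Zfp592 and Zfp687 stood at 18.6 and 21.02 RPKM in MES, against 7.90 and 10.5 RPKM in ESC, whereas their partner Zfp532 was lower in MES, with 15.9 RPKM against 34.3 RPKM. The members at least 2-fold above every other stage in MES were Zfp36l2 and Zfp423. Zfp365 was also highest in MES, with 6.24, 11.4, 1.69 and 1.82 RPKM and a gap of 0.78, and so was Zfp668, with 6.63, 11.0, 6.21 and 2.27 RPKM.

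CP was marked by Zfp503, a member of the NET family of developmental repressors. It stood at 0.258, 1.18, 21.9 and 1.90 RPKM from ESC through CM, with a CP minus MES difference of 3.39. Its paralogue Zfp703 came on earlier, with 1.59, 20.5, 16.3 and 11.3 RPKM, so the NET pair differed in the stage of its maximum. Zfp608 stood at 1.25, 11.8, 44.6 and 19.2 RPKM. Zfp711, an X-linked gene whose protein works with the demethylase PHF8, stood at 0.175, 1.38, 6.24 and 1.48 RPKM. The KRAB gene Zfp69 stood at 1.82, 2.23, 6.75 and 2.14 RPKM, and Zfp366, a corepressor known from dendritic cells, reached 2.37 RPKM in CP and was listed at 0 in MES. Zfp503, Zfp608, Zfp711, Zfp69 and Zfp366 were lower again in CM than in CP by at least 2-fold, and Zfp703 was not. Endothelial and blood markers were also higher in CP than in MES, 8 of 8 by 2-fold or more against 8.91% of all genes, with a summed level of 19.4, 6.84, 367 and 93.2 RPKM over the 4 stages. Their part in the CP values was not tested.

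Few members were marked by CM. Beside Zfp36, Zfp9 was the most pronounced, a KRAB gene at 0.106, 0.525, 3.35 and 17.4 RPKM from ESC through CM. Its CM minus ESC difference of 4.06 was the largest of any member. Zfp395 stood at 4.77, 15.3, 17.7 and 44.6 RPKM, and Zfp651 at 2.65, 4.60, 5.21 and 12.04 RPKM. Zfp641 stood at 0.0562, 0.224, 0.595 and 2.36 RPKM. Each of these 4 genes was higher at every later stage than at the one before. Smooth muscle and fibroblast markers were also higher in CM than in CP, 7 of 8 by 2-fold or more, against 11.3% of all genes. Their summed level was 290, 7.94, 592 and 2668 RPKM over the 4 stages, lower in MES than in ESC unlike these 4 genes, and their part was not tested. On the other side, Zfp41 stood at 6.20, 17.2, 17.5 and 3.97 RPKM and Zfp518b at 20.2, 12.8, 13.7 and 3.28 RPKM, both at least 2-fold lower in CM than in CP.

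Of 9 measured Zfp genes that work on RNA, ribosomes or the spindle, 0 were at least 2-fold apart between MES and ESC or between CP and MES. Over all genes 11.1% were higher and 11.2% lower in MES than in ESC, and 8.91% higher and 3.91% lower in CP than in MES. With 9 genes, a count of 0 is little apart from such shares. In CM 2 were lower than in CP by 2-fold or more, and 2 lower than in ESC, where all genes had 12.8% and 23.4%. Lower than in CP were Zfp207, a BUB3 partner at the spindle, with 33.1, 35.5, 29.7 and 13.5 RPKM, and Zfp326, which couples transcription and splicing, with 5.09, 7.88, 8.80 and 2.86 RPKM. Zfp622, a factor of large ribosomal subunit maturation, stood at 72.7, 44.7, 37.6 and 41.3 RPKM. Zfp598, the ubiquitin ligase of collided ribosomes, stood at 45.9, 34.4, 20.6 and 18.8 RPKM, and was with Zfp207 the other gene lower in CM than in ESC. Zfp106, an RNA-binding protein needed by motor neurons and muscle, stood at 59.2, 48.3, 35.3 and 40.8 RPKM. Zfp830, Zfp385a and Zfp346 stayed within 2-fold over the stages on the log2(RPKM + 1) scale, Zfp385a with 10.8, 15.5, 21.6 and 19.6 RPKM and Zfp346 with 11.7, 9.83, 8.62 and 12.5 RPKM. Zfp593 had the lowest mean of the 9, with 5.38, 7.84, 4.09 and 3.77 RPKM, and 72.1% of its words occur in other genes. Of 3 measured genes with a BTB domain under older Zfp symbols, Zfp238, known as Zbtb18, was at least 2-fold higher in MES than in ESC, with 4.90, 11.2, 8.06 and 4.77 RPKM. Zfp161 stood at 5.31, 8.96, 7.90 and 5.68 RPKM and Zfp295 at 8.34, 6.64, 5.18 and 4.46 RPKM, each within 2-fold over the stages.

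KRAB zinc finger genes sit in clusters, and the order of RefSeq genes on GRCm38.p6 was used to find neighbours. Of 313 members placed, 134 lay next to another member. Of these 66.4% carried KRAB and 35.8% spanned at least 2-fold over the stages, against 30.2% and 41.9% of the 179 others. There were 9 runs of 4 or more neighbours with 48 members. The longest held 8 members, Zfp74, Zfp568, Zfp14, Zfp82, Zfp566, Zfp260, Zfp382 and Zfp146, and its members parted over the stages. Within it Zfp566 stood at 15.7, 6.97, 4.20 and 1.72 RPKM from ESC through CM, and Zfp14 at 0.864, 0.859, 1.09 and 3.31 RPKM. Zfp146 stood at 23.6, 50.3, 43.3 and 33.5 RPKM. In the run of Zfp786, Zfp398, Zfp282, Zfp212, Zfp956, Zfp777 and Zfp746, 5 of 7 were highest in MES, against 27.1% of all members, but Zfp956 was highest in ESC, with 5.49, 3.65, 2.83 and 1.14 RPKM. Of these 7 members, 3 spanned at least 2-fold. In the run from Zfp560 through Zfp26, Zfp426 and Zfp266 to Zfp846, 4 of 5 were highest in MES and 3 of 5 spanned at least 2-fold. There Zfp266 stood at 15.2, 36.8, 28.4 and 15.8 RPKM. In the run of Zfp84, Zfp30, Zfp790, Zfp940, Zfp420 and Zfp27, 4 of 6 were highest in CM, against 16.9% of all members. Only Zfp30 among these 6 spanned at least 2-fold, with 0.644, 1.52, 2.41 and 5.23 RPKM. The 6 members from Zfp677 to Zfp948, all KRAB genes, lay below 6 RPKM, and 0 of them spanned 2-fold. In the other 4 runs, of 4 members each, no stage held the highest value of more than 2 members.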

How the data were processed

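The authors deposited RPKM values in 4 columns, 1 for each stage, for 8 libraries. Reads were aligned with Novoalign 2.07.00 to mm9, per the submitters' processing notes. Not given in the sources used here are the counter, the gene annotation, the gene filter and the way replicate libraries were merged. The Zfp genes and the gene lists were chosen with earlier results of these data known.

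With 1 value per stage, differences of log2(RPKM + 1) were computed, and members past 2-fold were counted, as descriptions. The tests planned for separate libraries could not be run. Reads per gene were estimated from the steps between low values and GENCODE M21 exon lengths (GRCm38, a build other than that of the files, so M21 gave no coordinates), and a count of 0 allows up to 3 reads, or 0.0199, 0.0242, 0.0232 and 0.0169 RPKM on a 2 kb model in ESC, MES, CP and CM. Intervals cover counting error only. Depth and difference steps were tested on simulated data.

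Finger and KRAB patterns were matched on translations of M21 transcripts, since no RefSeq protein table was used here. Shared sequence is given as the part of a transcript's 32-base words, in percent, found also in transcripts of other genes, and 18 of 304 members measured exceed 50%. Words were matched on either strand. Transcripts of another gene annotated over the same locus thus count as shared too, and the 2 kinds were not separated. The named genes were drawn from the 5 largest differences in each direction per comparison, the 5 widest gaps per stage, the 6 highest means, the 4 smallest ranges, the measured genes of the Zfp role lists, up to 3 of each partner list per comparison, the 5 members nearest to Zfp42 and runs of 4 or more neighbours. Zfp827 and Zfp473, on either side of the gap limit, Setdb1, Dnmt3a and Chd3 were named after their values were seen. Alternatives were pseudocounts of 0.1 and 0.5, a 4-fold minimum, an RPKM minimum of 3, 4 other scalings, a stricter finger pattern and leaving out the CCCH genes. Python 3.11.15, pandas 2.3.3, numpy 2.4.6, scipy 1.17.1 and Biopython 1.88 were used.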

Additional observations from a re-analysis of the deposited data

How the results depend on the processing

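Of 455 recomputed differences and stage gaps of named genes, 429 kept direction and side of the limit, 3 passed 2-fold and 0 reversed. The other 23 fell below the limit. For 22 of them the limit was the raised minimum of 4-fold, and 1 fell below 2-fold with median-ratio size factors. With a pseudocount of 0.1, 60 members were at least 2-fold higher in MES than in ESC, 20 higher and 7 lower in CP than in MES, and 11 higher and 55 lower in CM than in CP, and 32 with a 2-fold span were highest in CM. At a minimum of 4-fold the counts of higher and lower were 9 and 8 for MES against ESC, 1 and 1 for CP against MES, 2 and 2 for CM against CP and 14 and 12 for CM against ESC, with 33 members spanning it, 9 with such a gap, and 12, 6, 8 and 7 highest in ESC, MES, CP and CM. Members that reach 3 RPKM at some stage had a median MES minus ESC difference of 0.33. With quantile normalization the medians were -0.14 for CP minus MES and -0.18 for CM minus CP, and 58 members were highest in CP. Scaling every stage to sum to 1000000 gave 58 members higher in MES than in ESC, 17 higher in CP than in MES, 57 lower in CM than in CP (median -0.47) and 63 with a 2-fold span highest in CP. The stage sums before scaling were 240579 to 264636 RPKM. This setting therefore raised every value and also lowered the weight of the pseudocount of 1. Median-ratio size factors gave medians of 0.088 for MES minus ESC and -0.17 for CM minus CP, and centring gave -0.14 for the last. Shares of all genes were computed only for a 4-fold span and, under other scalings, for the stage of the highest value. The other counts of members at these settings therefore have no background beside them. The cause of the shifts between settings was not tested. No paired analysis was possible because the table holds 1 column per stage, and leaving out a replicate could not be run for the same reason. The split by mean level and the count without the 18 members of over 50% shared words were added after the data were seen, and leaving these 18 out gave 115 members with a 2-fold span. Depth limits values near 3 reads, such as Zfp936 in CM.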
